A study of Drosophila melanogaster with 3 samples.

Results

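The genes described here are the 8 Drosophila Hox genes, lab, pb, Dfd, Scr, Antp, Ubx, abd-A and Abd-B, with the 2 Hox cofactor genes hth and exd. They were taken as a named set of 10 out of 18164 annotated genes, and they were scored for binding by the product of the gene CG17361. A peak was counted at a gene's promoter when its summit lay within 500 bp of a transcription start site (TSS), in the gene body when the summit lay between the gene's ends, and in its locus when it lay in the body or within 10 kb of it. By these limits 48 of the 7804 peaks of the main list lay in a member locus, which is 0.615% of the list.

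The peaks came from chromatin immunoprecipitation and sequencing (ChIP-seq) with an anti-GFP antibody, in a transgenic fly line that carries CG17361 fused to eGFP. Whole embryos aged 0 to 24 hours were used, so every peak is a mixture over all segments, tissues and stages of embryogenesis. There was 1 group of 3 biological replicates, with no other genotype, treatment or stage, and the labels do not say whether the replicates were separate embryo collections. The immunoprecipitated product is the tagged transgene, so the endogenous protein was not measured, and each peak list was made against a control library whose values were not analysed here.

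Hox genes encode homeodomain transcription factors that give each segment along the head-to-tail axis its identity. In Drosophila they lie in a pair of clusters on chromosome arm 3R, the Antennapedia complex (lab, pb, Dfd, Scr and Antp) and the bithorax complex (Ubx, abd-A and Abd-B), where long introns and intergenic stretches hold the enhancers and Polycomb response elements that set their domains of expression. The homeodomain protein Extradenticle (exd) binds DNA jointly with Hox proteins, and Homothorax (hth), also a homeodomain protein, carries exd into the nucleus.

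The sequence under a summit approximates the DNA near the tagged protein, and fragments of 200 to 800 bp do not place it exactly. Shown are the 101 bases centred on the main-list summit of each gene's strongest peak present in the lists of all 3 replicates. Windows for both promoter peaks are shown too. All are plus-strand reference sequence of dm6 read 5′ to 3′, from the RefSeq copy of the release 6 assembly, and capitals mark stretches of at least 8 bases made of only A and T.
lab intron (chr3R:6664899-6664999): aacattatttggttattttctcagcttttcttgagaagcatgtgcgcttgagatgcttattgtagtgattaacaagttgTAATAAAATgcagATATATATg
pb intron (chr3R:6723930-6724030): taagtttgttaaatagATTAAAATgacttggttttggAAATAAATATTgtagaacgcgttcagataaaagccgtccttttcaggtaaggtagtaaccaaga
Scr downstream flank (chr3R:6816789-6816889): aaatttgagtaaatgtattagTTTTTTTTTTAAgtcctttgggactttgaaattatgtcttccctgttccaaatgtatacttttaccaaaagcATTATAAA
Antp intron (chr3R:6912606-6912706): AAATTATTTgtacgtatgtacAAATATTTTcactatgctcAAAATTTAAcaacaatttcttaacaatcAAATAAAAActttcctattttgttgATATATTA
Antp proximal promoter (chr3R:6933137-6933237): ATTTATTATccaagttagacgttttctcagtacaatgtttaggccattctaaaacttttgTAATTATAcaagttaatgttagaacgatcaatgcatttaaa
Ubx downstream flank (chr3R:16647151-16647251): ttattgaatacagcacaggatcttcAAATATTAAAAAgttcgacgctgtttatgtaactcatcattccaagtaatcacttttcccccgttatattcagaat
abd-A upstream flank (chr3R:16837958-16838058): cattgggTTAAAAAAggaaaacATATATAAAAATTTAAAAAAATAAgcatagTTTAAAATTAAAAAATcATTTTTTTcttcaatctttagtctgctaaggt
Abd-B intron (chr3R:16958197-16958297): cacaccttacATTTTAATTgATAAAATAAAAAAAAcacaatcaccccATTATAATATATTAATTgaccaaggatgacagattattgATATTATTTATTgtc
hth intron (chr3R:10537258-10537358): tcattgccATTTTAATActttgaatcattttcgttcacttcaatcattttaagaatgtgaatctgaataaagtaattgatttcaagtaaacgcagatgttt
exd promoter (chrX:15992127-15992227): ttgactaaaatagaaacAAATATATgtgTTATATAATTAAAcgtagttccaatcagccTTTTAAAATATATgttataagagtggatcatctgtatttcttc
Every one of these 10 windows held at least 1 such stretch, as did 79.4% of the windows of all main peaks. The longest, of 24 bases, was in the abd-A window, followed by 17 bases in the Abd-B window and 13 bases at the exd promoter. The lab and hth windows and both Antp windows had 9 bases as their longest stretch. For lab, pb, Scr, the strongest Antp peak and exd, at least 1 replicate's own summit lay outside the printed window.

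The main list was the authors' conservative thresholded list, which compares replicates 1 and 3 by the irreproducible discovery rate (IDR) at a threshold of 0.01. Each replicate also had a thresholded list of its own, with 5942, 3797 and 5576 peaks for replicates 1, 2 and 3 (5105 ± 1147, SD, n = 3). Replicate 2 had the shortest list, no read counts accompany the lists, and so the part that sequencing depth played in the differences between replicates was not tested. The peak signal is the authors' own score, and its median was 213.7 in the main list and 105.6, 86.3 and 110.0 in the 3 replicate lists, so signals are compared below only within a list.

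Few of these genes had a peak at a promoter. In the main list 2 of the 10 members, Antp and exd, had a promoter summit, beside 22.3% of all annotated genes and 26.4% of protein-coding genes. In the replicates' own lists the counts were 3 in replicate 1 (Dfd, Antp and exd), 1 in replicate 2 (Dfd) and 2 in replicate 3 (Antp and exd), with 23.2%, 16.2% and 21.8% of protein-coding genes bound in the same lists. No member was promoter-bound in all 3 replicates. With 10 members these shares lie near the background, and nothing is read from them.

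Most had a peak in the wider locus. A summit in the body or within 10 kb was present for 9 of the 10 members in the main list, beside 68.3% of protein-coding genes and 81.1% of those with a body of at least 10 kb. The count was 10, 9 and 9 in the 3 replicates (9.33 ± 0.577, SD, n = 3). Within the body itself, 5 of the 10 members had a summit in the main list (lab, pb, Antp, Abd-B and hth), beside 15.3% of protein-coding genes and 50% of those of at least 10 kb. All members except exd have a body of at least 10 kb, so the share among long genes is the closer background. With 10 members both main-list counts lie near that share, and nothing is read from them.

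**Figure D1:**
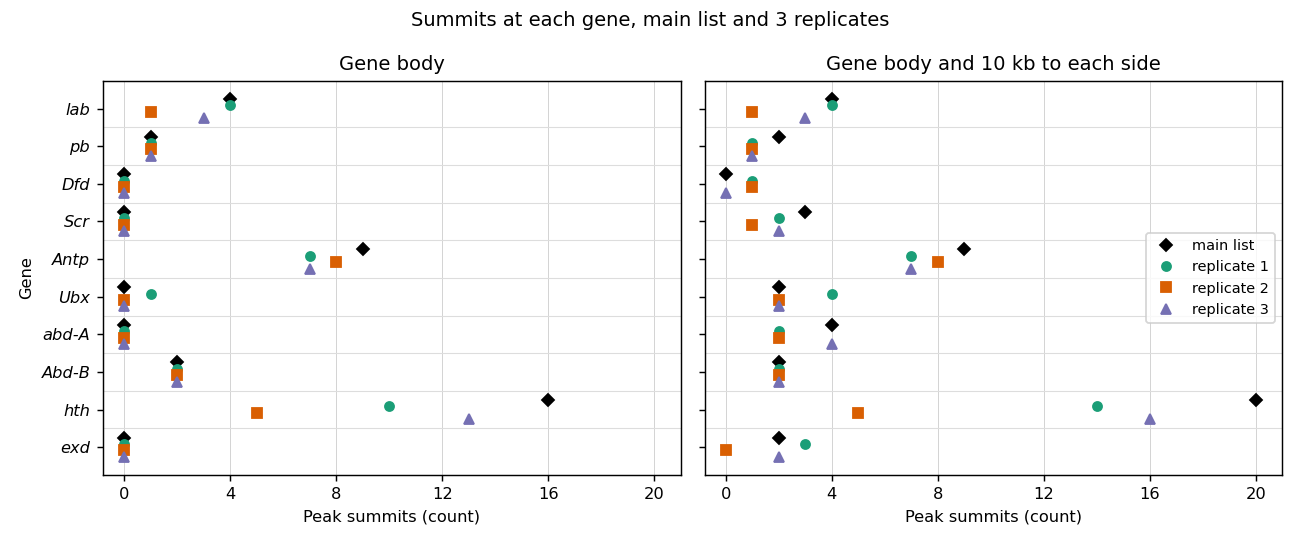
Peak summits in each gene's body (left) and in the body with 10 kb to each side (right), as counts in the main list (black diamonds) and in the own lists of replicates 1, 2 and 3 (coloured symbols). hth and Antp hold the most in every list, 16 and 9 body summits in the main list, while Dfd, Scr, abd-A and exd have none in the body in any of the 4 lists.

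Summits in member bodies numbered 32 in the main list and 25, 17 and 26 in the replicates (22.7 ± 4.93, SD, n = 3). Over the 473.6 kb of member bodies this was 0.676 summits per 10 kb, against 0.483 over all protein-coding bodies and 0.583 over the 6 chromosome arms. The ratio of member bodies to all coding bodies was 1.398 in the main list and 1.46, 1.61 and 1.62 in the replicates. The density was not even over the genes: the bodies of hth and exd together had 1.18 summits per 10 kb, all of them in hth, and the 8 Hox bodies had 0.474. No test was made of these densities, because the genes were chosen with earlier results of the same lists known.

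Among the Antennapedia complex genes, lab, which acts in the intercalary segment of the head and in the midgut, had 4 body summits in the main list and 4, 1 and 3 in replicates 1, 2 and 3. All 4 lay in introns of a gene of only 17.164 kb (chr3R:6661427-6678590, minus strand), giving 2.33 summits per 10 kb. The peak present in all 3 replicates (chr3R:6664918-6665220) had a main-list signal of 314.2 and replicate signals of 144.4, 70.7 and 121.6. The replicate 1 peak of 144.4 covered the main-list summit but had its own summit outside the main-list peak. An overlapping replicate 1 peak, with its summit inside, had a signal of 102.6. The main-list summit lay 1495 bp from the nearer of the 2 lab start sites. The other 3 lab peaks had signals of 211.95, 86.3 and 203.8 and none was in the list of replicate 2; the first 2 of them overlap each other and share their replicate peaks.

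The gene pb, which directs the development of the adult mouthparts, spans 34.264 kb (chr3R:6707800-6742063, minus strand). It had 1 body summit in the main list and 1 in each replicate. This intronic peak (chr3R:6723828-6724130) had signals of 290.4 in the main list and 112.2, 70.8 and 108.3 in the replicates, 18.083 kb downstream of the start site. A second peak, of 178.3, lay 9861 bp upstream of pb and was in no replicate's own list; the nearest start site to it was that of the homeobox gene zen, at 2270 bp.

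Dfd, the Hox gene of the mandibular and maxillary segments, differed between the lists. The main list had no summit in its body (chr3R:6791836-6802428, plus strand) or within 10 kb, and its nearest summit was 23228 bp from the start site. Replicate 1 had a promoter peak (chr3R:6791342-6791522) of signal 144.3, higher than 72.5% of its list, with the summit 467 bp from the start site. Replicate 2 had one of 71.0, above 32.6% of its list, at 436 bp. Replicate 3 had none, and neither did any of the 8 series-level lists, in which the nearest summit was at least 23228 bp away in the thresholded lists and at least 12798 bp away in the ranked ones. Both replicate summits fell upstream of the gene, near the outer edge of the 500 bp limit.

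Scr, which specifies the labial and first thoracic segments, had no summit in its 26.862 kb body (chr3R:6823120-6849981, minus strand) in the main list or in any replicate. Its locus held 3 summits in the main list and 2, 1 and 2 in the replicates, all downstream of the gene. The strongest (chr3R:6816534-6817143) had signals of 310.6 in the main list and 145.6, 56.1 and 110.2 in the replicates. It lay 6281 bp beyond the 3′ end of Scr and 460 bp from the start of the noncoding gene lncRNA:CR42651, so by distance it is a peak of that gene's promoter.

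Antp, the Hox gene of the second thoracic segment, had the most summits of any Hox gene. Its 102.976 kb body (chr3R:6896253-6999228, minus strand) held 9 in the main list and 7, 8 and 7 in the replicates (7.33 ± 0.577, SD, n = 3), so its count varied less than those of lab and hth. The density was 0.874 per 10 kb, higher than that of 76.9% of the 1013 protein-coding genes with bodies of at least 20 kb. Of the 9 peaks, 8 lay in the part of Antp that is also annotated as the gene CG46458, and the assignment to Antp is by position alone.

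The 4 Antp peaks present in all 3 replicates were intronic. The strongest (chr3R:6912330-6912958) had a signal of 612.8, rank 481 of 7804, and replicate signals of 270.6, 152.5 and 209.7. A second (chr3R:6903157-6903626) was nearly as strong at 611.2, with 251.1, 121.9 and 235.1. The others had main-list signals of 426.7 (chr3R:6936130-6936504; replicates 139.1, 108.5 and 174.2) and 343.4 (chr3R:6914369-6914685; replicates 111.3, 90.3 and 134.0). All 4 stood above the median of every replicate's list. At the strongest, the replicates' summits spanned 164 bp, the widest span of any member peak found in all 3 replicates. At the others they spanned 13, 31 and 40 bp, in the order given.

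Antp has 3 annotated start sites, and its promoter peak was at the most downstream of them, 66.388 kb from the first, from which 6 of its 12 transcripts begin. This peak (chr3R:6933018-6933255) had a signal of 291.1 in the main list, 130.5 in replicate 1 and 113.2 in replicate 3, and its summit lay 347 bp upstream of that start. It was absent from the thresholded list of replicate 2, whose ranked list held it at a signal of 49.5 and an IDR of 0.0422, above the threshold. An overlapping peak of 186.9 had its summit at 584 bp, just outside the promoter limit, and another of 117.6 lay 782 bp from the middle start site. The first start site had no summit within 40.076 kb in the main list.

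**Figure D2:**
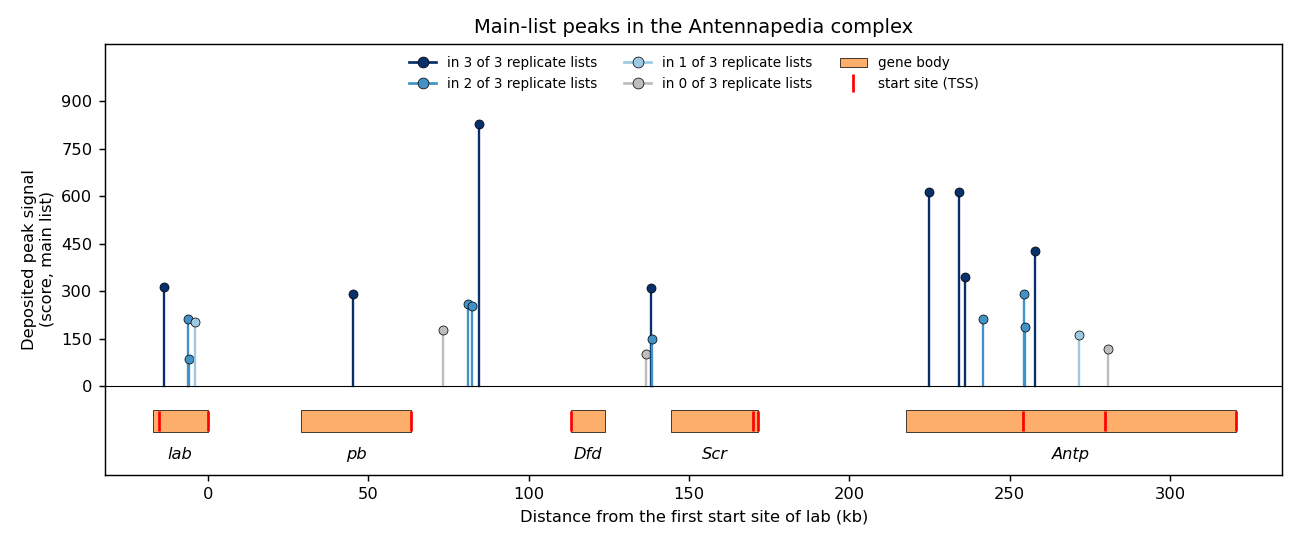
Main-list peaks across the Antennapedia complex, with the deposited signal (score) against distance from the first start site of lab in kb; orange bars are member gene bodies, red ticks are start sites, and colour gives the number of replicates whose own list holds the peak. Peaks group within lab, in the interval between pb and Dfd, downstream of Scr and in the 3′ part of Antp, and the lab to pb and Scr to Antp intervals are empty.

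Across the whole complex, from lab to Antp, 21 summits in 337.8 kb gave 0.622 per 10 kb, and the replicates had 19, 16 and 17. Their placement was uneven. The lab to pb interval of 29.2 kb had none in any of the 4 lists, and the Scr to Antp interval of 46.3 kb had none in the main list and 0, 1 and 0 in the replicates. The 49.8 kb between pb and Dfd held 4, among them the strongest peak of the complex at 827.7, at the promoter of Ama, which encodes an extracellular immunoglobulin-domain protein, and of lncRNA:CR45593. Of the 4 other homeobox genes there (zen, zen2, bcd and ftz), bcd, whose product patterns the anterior of the early embryo, was promoter-bound at 259.6 and the other 3 were not. The bcd peak was in the lists of replicates 2 and 3, at 102.1 and 113.9, and not in that of replicate 1. Among all 44 other genes lying within the complex, 4 were promoter-bound (bcd, Ama, lncRNA:CR45593 and lncRNA:CR42651), beside 22.3% of all genes. These were 2 of 15 protein-coding genes and 2 of 29 others, for which the shares over the whole annotation were 26.4% and 8.72%.

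In the bithorax complex, Ubx, which specifies the third thoracic and first abdominal segments, had no summit in its 77.804 kb body (chr3R:16656623-16734426, minus strand) in the main list. Replicate 1 had 1 body summit, of signal 68.8, and replicates 2 and 3 had none. The pooled thresholded list had 4 in the body, and the list that compares replicates 1 and 2 had 1. In the main list, 59 of the 175 protein-coding genes with bodies of at least 70 kb (33.7%) likewise had none, and the median was 2. Antp, the longer of the pair, had 9 in the same list. The Ubx locus had 2 summits in the main list, both downstream. The stronger (chr3R:16646963-16647419) had signals of 436.4 in the main list and 165.2, 106.4 and 173.6 in the replicates, but it lay 9422 bp beyond the gene and 197 bp from the start of CG10324, with CCT3, a chaperonin subunit gene, also within 500 bp. The weaker, of 246.4, lay 444 bp beyond the 3′ end of Ubx, and replicate 1 was the one replicate list that held it, at 127.9. The nearest start site to this weaker peak was that of modSP, at 517 bp.

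abd-A, the Hox gene of the middle abdominal segments, had no summit in its 22.836 kb body (chr3R:16807214-16830049, minus strand) in any of the 4 lists. Its locus held 4 in the main list and 2, 2 and 4 in the replicates. The peak upstream of the gene that was in all 3 replicates (chr3R:16837870-16838130) had signals of 284.5 in the main list and 104.04, 78.9 and 97.2 in the replicates. It lay 7959 bp from the first abd-A start site, in introns of MSAmiP and lncRNA:iab8. The strongest of the 4 (chr3R:16801099-16801421), with signals of 336.8 in the main list, 124.0 in replicate 1 and 129.4 in replicate 3, lay downstream, 45 bp from the start of lncRNA:TS16.

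Abd-B, which specifies the posterior abdomen and the genital segments, had 2 body summits in the main list and 2 in each of the 3 replicates, and none in the flanking 10 kb. The first (chr3R:16957941-16958589) was the strongest of all 48 member peaks. Its signal was 794.8, rank 182 of 7804, with 339.0, 178.5 and 276.5 in the replicates, where it ranked 78, 382 and 243. The second (chr3R:16969840-16970143) had signals of 363.1 in the main list and 131.4, 102.4 and 140.8 in the replicates. Both were intronic in the 45.025 kb gene (chr3R:16927212-16972236, minus strand). Their summits lay 2034 and 1396 bp from the nearest of the 6 Abd-B start sites, outside the promoter limit.

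**Figure D3:**
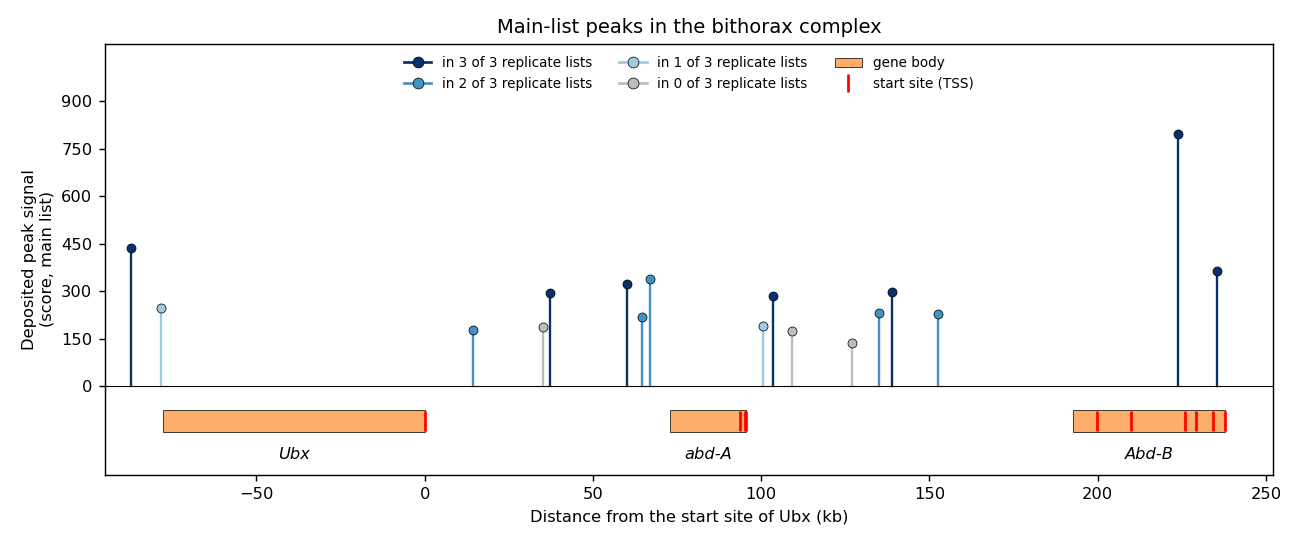
Main-list peaks across the bithorax complex, with the deposited signal (score) against distance from the start site of Ubx in kb; symbols as in the map of the Antennapedia complex. The bodies of Ubx and abd-A are empty, the intervals between the genes hold 6 and 7 peaks, and the peak of 794.8 inside Abd-B stands above all others.

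From Ubx to Abd-B, 15 summits in 315.6 kb gave 0.475 per 10 kb, with 10, 8 and 12 in the replicates, and 13 of them lay between the Hox genes. The 72.8 kb from Ubx to abd-A held 6 in the main list and 3, 4 and 5 in the replicates, and the 97.2 kb from abd-A to Abd-B held 7 and 4, 2 and 5. Outside the member loci, 3 of these peaks were in all 3 replicates, with main-list signals of 292.8 (chr3R:16771653-16771932), 322.8 (chr3R:16794284-16794575) and 298.5 (chr3R:16873172-16873388). The first lay in lncRNA:bxd, a noncoding RNA gene of the Ubx regulatory region, which held 3 summits, and the last in MSAmiP and lncRNA:iab8, which overlap each other and held 7. Of the 18 other genes within the complex, lncRNA:TS16 was the 1 that was promoter-bound. It was 1 of 15 that are not protein-coding, beside 8.72% of such genes in the annotation.

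The cofactor gene hth had the most summits of the 10 in the main list and in replicates 1 and 3, and in replicate 2 Antp had more, 8 in the body against 5. The hth gene is the longest of the set, and its 132.008 kb body (chr3R:10507561-10639568, minus strand) held 16 in the main list and 10, 5 and 13 in the replicates (9.33 ± 4.04, SD, n = 3), and the locus held 20 and 14, 5 and 16. The density of 1.21 per 10 kb in the main list was higher than that of 85.1% of coding genes of at least 20 kb, whose median was 0.279. Overlapping peaks are counted separately in it. The peaks chr3R:10520514-10520779 and chr3R:10520558-10521167 overlap. So do chr3R:10597539-10597969, chr3R:10597539-10597997 and chr3R:10597841-10598450, and the separate sites are therefore fewer than 16. Replicate 2, whose list was the shortest, also had the fewest hth summits, and the part of depth in this was not tested.

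Of the hth peaks, 4 were in all 3 replicates, all in introns. The strongest (chr3R:10537057-10537552), 102.26 kb downstream of the first start site, had signals of 577.3 in the main list and 227.0, 124.2 and 225.4 in the replicates. The next (chr3R:10597539-10597969) had 385.9, with 116.8, 114.97 and 153.8. The remaining pair had main-list signals of 272.1 (chr3R:10628354-10628579; replicates 99.0, 69.1 and 119.2) and 221.0 (chr3R:10636145-10636317; replicates 64.3, 71.6 and 97.5). Most other hth peaks were weaker and less repeatable, and 9 of the 20 were in the list of 1 replicate. None was within 500 bp of an hth start site, the nearest being at 3343 bp. The ranked list of replicates 1 and 3, which has no threshold, had a summit 94 bp from the second hth start site with a signal of 122.5 and an IDR of 0.0140, just outside the threshold of 0.01.

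By the number of body summits per 10 kb in the 3 replicates, the coding genes of at least 20 kb most like hth were Sulf1, Bx and CG33158. Their distances from hth, over 3 values of log2(summits per 10 kb + 0.1), were 0.173, 0.213 and 0.259. Their main-list counts were 3 for Sulf1, 9 for Bx and 12 for CG33158, and each had its lowest count in replicate 2. So did hth, and the genes were chosen on these replicate values, so nothing is read from that.

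exd, in contrast to hth, is a short gene of 4.042 kb on the X chromosome (chrX:15992468-15996509, plus strand), and its body held no summit in any of the 4 lists. Its promoter peak (chrX:15991872-15992481) had signals of 316.0 in the main list, 167.7 in replicate 1 and 92.8 in replicate 3. Replicate 2 had no summit in the whole locus, in a list in which 16.2% of coding genes were promoter-bound. The summit lay 291 bp upstream of exd and 203 bp from the shared start of eIF5, a translation initiation factor gene, and CG46312, which run the opposite way. The peak thus sits between divergent start sites and is nearer to that of eIF5. The other exd-locus peak, of 196.5, lay 9303 bp beyond the gene at the start of vap.

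**Figure D4:**
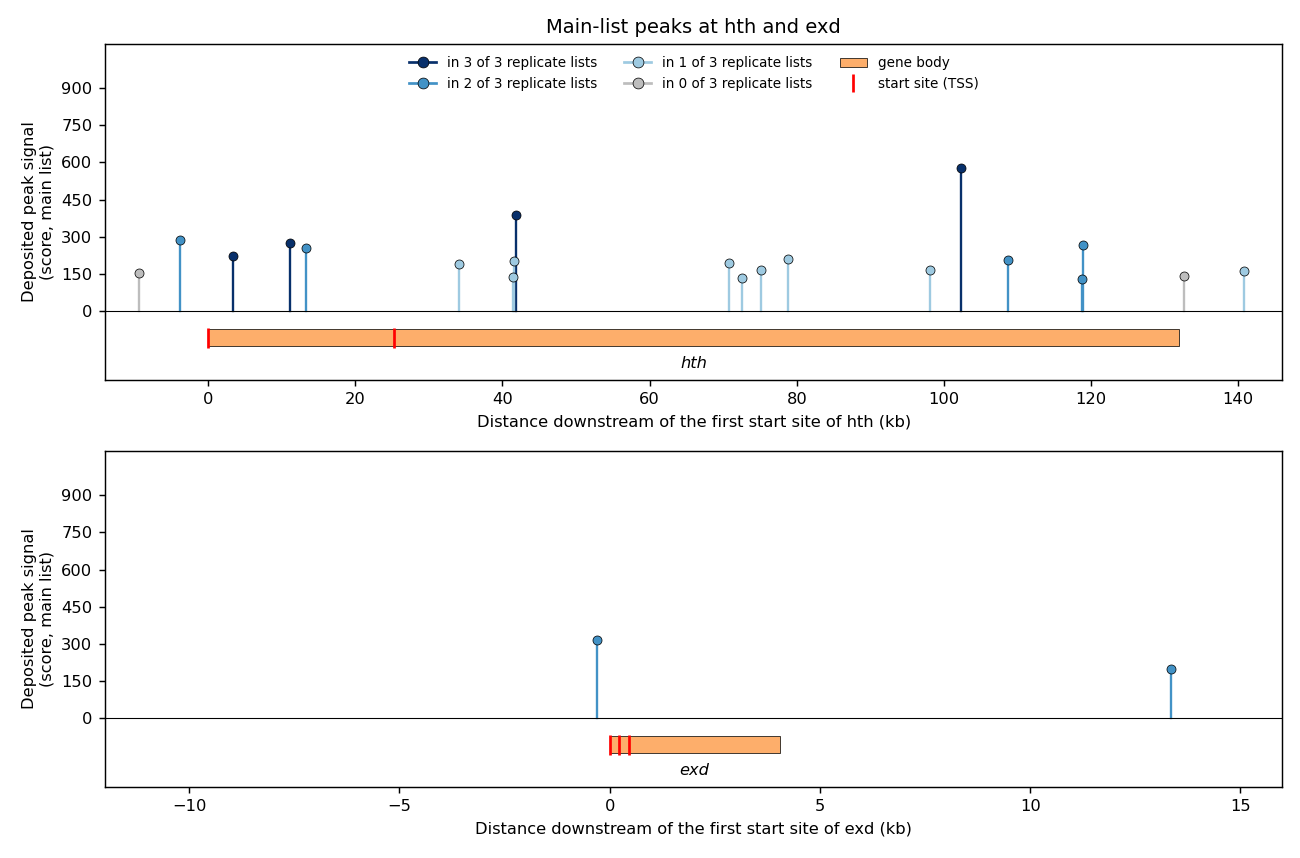
Main-list peaks at hth (top) and exd (bottom), with the deposited signal (score) against distance downstream of each gene's first start site in kb; symbols as in the map of the Antennapedia complex. The 16 body peaks of hth, some of which overlap each other, are spread through its introns, with the strongest 102.26 kb into the gene. exd has 1 peak just upstream and 1 beyond its 3′ side.

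Taken as a set of 48 peaks, the member loci were mostly intronic and had about the median signal of the list. Introns held 34 of the 48 (70.8%) and promoters of any gene held 6 (12.5%), against 34.6% and 46.2% of all 7804 peaks. The remaining 8 were intergenic in 7 cases and in a noncoding exon in 1, and none lay in a coding exon or a UTR. The loci were chosen around 10 mostly long genes, so these shares describe the loci and are not a contrast between kinds of gene. The median signal was 211.8 against 213.7 for the whole main list, and 23 of the 48 were above that median. In the replicates the medians were 107.9 against 105.6, 78.9 against 86.3 and 98.0 against 110.0.

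Of the 48 peaks, 15 (31.3%) were in the lists of all 3 replicates, 15 in 2, 13 in 1 and 5 in none, and 36.9% of all main peaks were in all 3. The 15 belonged to 8 members, with 4 each at Antp and hth, 2 at Abd-B and 1 each at lab, pb, Scr, Ubx and abd-A. Dfd and exd had none. For peaks found in all 3 replicates, the replicates' summits spanned a median of 40 bp, against 49 bp over all such main peaks. Counting overlapping intervals as 1 site reduced the 48 peaks to 42 sites.

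**Figure D5:**
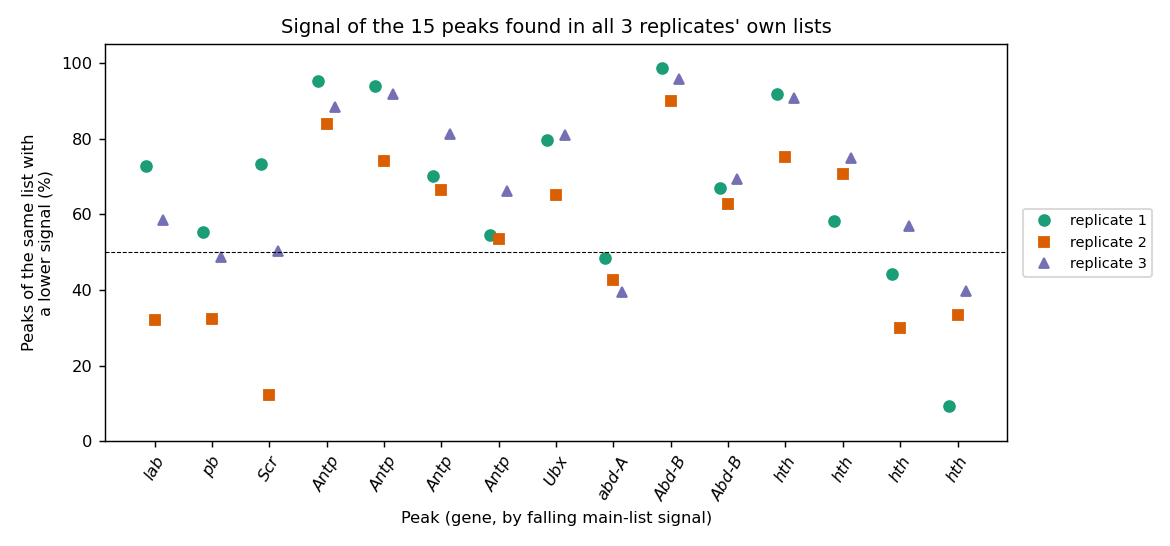
For each of the 15 peaks present in the own lists of all 3 replicates, the share of the same replicate's list with a lower signal, in percent; the dashed line is the median peak of a list. The strongest Abd-B peak lies at 98.7%, 89.9% and 95.6%, and 9 of the 15 peaks are above the median in all 3 replicates.

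Ranked within each replicate's own list, 9 of these 15 peaks were above the median in all 3 replicates, as were 52.1% of all 2878 main peaks found in every list. The 9 were the 4 of Antp, both of Abd-B, the stronger 2 of hth and the Ubx-flank peak. The peaks of lab, pb and Scr were above the median in replicate 1, at 72.6%, 55.2% and 73.2% of its list, and below it in replicate 2, at 32.2%, 32.3% and 12.3%. In replicate 3 they were at 58.6%, 48.7% and 50.3%. For lab in replicate 1, 72.6% is the place of the strongest covering peak. The overlapping replicate 1 peak with its summit inside the main-list peak was at 47.1%. Below the median in all 3 replicates were 2 peaks. The abd-A peak was at 48.4%, 42.6% and 39.5% in replicates 1, 2 and 3, and the weakest of the 4 hth peaks at 9.24%, 33.3% and 39.8%. The hth peak with a main-list signal of 272.1 was at 44.3%, 29.8% and 57.0%. Replicate 2 gave the lowest place to 12 of the 15, and to 65.5% of all 2878.

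The sequence around the member summits was rich in A and T. Within 50 bp of the summit the GC content was 31.1% ± 9.44 (SD over 48 peaks), and in windows of equal length 250 bp away it was 44.6% ± 7.86, and it was lower at the summit in 41 of the 48 (85.4%). All 7804 main peaks had means of 32.4% and 42.8%, and 78.0% of them were lower at the summit. At the 15 member peaks of all 3 replicates the means were 25.4% and 46.0%, with 14 (93.3%) lower at the summit. All 2878 main peaks found in every replicate's list had 29.7% and 44.0%, with 87.5% lower at the summit. The Ubx-flank peak at CG10324, printed above, was the exception, with 32.7% at the summit and 28.7% beside it. Stretches of at least 8 bases of A and T were present in 37 of the 48 windows (77.1%), against 79.4% of all main peaks.

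Sequence words linked to Hox proteins and to known regulators of these complexes were searched on both strands of the same 101 bp windows. The homeodomain core TAATTA was in 2 of the 48 windows (4.17%), the Antp and exd promoters, against 11.3% of all peaks. TGATNNAT, the form bound by Hox proteins with exd, was in 5 (10.4%) against 8.82%, and TGACAG, bound by hth, was in 2 (4.17%) against 2.81%. GAGAG, the word of the GAGA factor Trl, was in 6 (12.5%) against 8.35%, and GCCAT, the core of the Polycomb-group factor pho, was in 8 (16.7%) against 12.7%. Among the printed windows, TGACAG was at Abd-B, TGATNNAT at the strongest Antp peak, and GCCAT at the Antp promoter and at hth. These words can overlap the A and T stretches, and a match says only that the letters are present.

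A list of 23 genes that act with Hox proteins or are known targets of them was also scored. Promoter binding was found for 1 of the 23, Ama, in the main list and in each replicate, beside 26.4% of protein-coding genes in the main list. Body summits were found for 7 of them, beside 15.3% of protein-coding genes. Of the 10 listed genes with a body of at least 10 kb, 5 had one, and the share among all such genes was 50%. They were strongest in Ama at 827.7, disco-r, a zinc-finger gene, at 596.7, the homeobox gene ct with 3 summits of up to 399.5, and dpp, a signalling ligand gene, at 369.95. The other 3 were Con, a cell-adhesion gene with 3 summits of up to 231.0, the homeobox gene cad at 168.6 and the Wnt ligand gene wg at 150.3. The other 16, among them Dll, tsh, salm and ap, had neither a promoter nor a body summit in the main list.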

How the data were processed

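The measurements were ChIP-seq peak lists of CG17361-eGFP from 3 replicates of whole embryos, in 14 deposited lists. Chromatin was sonicated to 200 to 800 bp, per the labels. Reads were mapped to dm6 and peaks made against a control library, per the labels. The aligner was not given in the sources used here, nor was the peak caller. The authors deposited a score as peak signal, whose scale the labels do not state. The global IDR was deposited by the authors as a −log10 value, at least 2 on every line of the thresholded lists. The summit offset is deposited as other values, in bases from the peak start. Read depth is unknown.

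Series-level lists were assigned to replicates by identical intervals and signals in the ranked lists, and the authors' conservative list compares replicates 1 and 3. Series-level intervals and signals draw on all 3 replicates' alignments. An interval deposited on several lines was counted once, with its strongest summit, which made 7804 peaks on 6 arms from 8536 lines. A peak was counted as present in a replicate when its summit lay in a thresholded peak of that replicate. Genes and TSSs were those of Ensembl release 115, without transposable elements. Replicate values are mean ± SD (n = 3). Densities are summits per 10 kb of the union of bodies. All statements are descriptive and no test was made. Members, gene lists, sequence words and the rule for named peaks (promoter peaks, the strongest, and those in all 3 replicates) were chosen with earlier results of these data known. Alternatives changed the TSS limit, the flank, the treatment of lines and intervals, the IDR threshold and the list. Counting was tested on simulated data. Python 3.11.15, numpy 2.4.6, pandas 2.3.3 and matplotlib 3.10.9 were used.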

Additional observations from a re-analysis of the deposited data

How the results depend on the processing

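The number of members with a summit in the body or within 10 kb was 9 in the main list and stayed within 1.5 times of it under all 14 alternatives. It was lowest, at 7, in the list that compares replicates 1 and 2 and in the list that compares replicates 2 and 3. In both of these Dfd, Scr and exd had none. The 2 promoter-bound members became 0 with a TSS limit of 250 bp, 0 with peaks in every replicate's list, 1 with the first TSS of each gene only, 1 in the list of replicate 2 and 4 in the ranked list with no threshold. The 32 body summits became 21 at a global IDR of 0.001, 12 with peaks in every replicate's list, 291 in the ranked list and 17 in the list of replicate 2. The density of 0.676 per 10 kb became 0.443, 0.253 and 6.14 under the first 3 of these, 0.929 in the pooled list and 0.528, 0.359 and 0.549 in the lists of replicates 1, 2 and 3. The median signal of 211.8 became 290.4, 363.1 and 37.0 under the same 3, 187.4 in the pooled list and 107.9, 78.9 and 98.0 in the replicates' lists, where the scale differs. Alternatives chosen after seeing the data moved it too. Merging overlapping intervals gave a density of 0.570 and a median signal of 233.7. Without hth, 16 body summits remained, at 0.468 per 10 kb and a median signal of 265.4. Over all protein-coding bodies the density was 0.483 in the main list and 0.170 with peaks in every replicate's list. It was 3.10 in the ranked list, 0.500 in the pooled list and 0.400 with overlapping intervals merged. The ratios of member to coding bodies were 1.40, 1.49, 1.98, 1.86 and 1.43 in that order. The coding density at a global IDR of 0.001 and most promoter shares over all genes are not given here. Leaving out a replicate here means using the list that compares the ranks of the others. Its intervals and signals still draw on the alignments of all 3, so these are not values free of that replicate, and the list without replicate 2 is the main list itself. The ranges were 1 to 2 promoter-bound members, 20 to 32 body summits, densities of 0.422 to 0.676 and median signals of 211.8 to 290.4. In the list that compares replicates 2 and 3 the values were 1, 20, 0.422 and 290.4. Stricter thresholds keep fewer and stronger peaks by construction, and beyond this the cause was not tested. The lists give no depth, so a missing peak does not show that the protein was absent.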

Other observations

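Of the peaks in member loci in the replicates' own lists, 5 of 40 in replicate 1, 2 of 23 in replicate 2 and 4 of 39 in replicate 3 had summits outside every main-list peak. The Dfd promoter was the one place where such summits came from a pair of replicates, 1 and 2, at 144.3 and 71.0. Ranked lists put a pb summit 123 bp from its start site in replicate 3, with a signal of 59.5 and an IDR of 0.0701. The downstream lab start site had ranked summits in all 3 replicates, and the first lab start site in replicates 1 and 3. In the ranked list of replicates 1 and 3 the strongest was 350 bp from the downstream start site, with a signal of 82.2 and an IDR of 0.0495. No ranked or thresholded list examined here had a summit within 500 bp of a start site of Scr or Abd-B.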
